A study of Mus musculus with 12 samples.

Results

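Pineal glands of Crx-/- mice were compared with pineal glands of control mice collected at night, at zeitgeber time 20 (ZT20, counted from lights on). The comparison was chosen by sample title: 3 arrays titled Crx-/- at ZT20 against 3 titled control at ZT20, which is 6 of the 12 arrays of the series. The other 6 arrays hold 3 control and 3 Crx-/- samples collected by day, at ZT6, and they entered the analysis through the estimate of the spread between arrays and through the comparison of night with day. Control mice were of the strain 129sv, and the Crx-/- arrays carry the same strain label. All groups were of both sexes, older than 2 months, on a cycle of 12 h light and 12 h dark, and were killed with CO2 and decapitation, under dim red light at ZT20. Total RNA was amplified before hybridization to mouse whole-genome Affymetrix arrays. The labels call the 3 arrays of a group biological replicates, but do not say how many glands one array holds or which part of Crx is deleted, so the p-values describe the spread between these arrays. All 6 night arrays measured RNA from both sexes: the X-inactivation transcript Xist and the Y-linked gene Eif2s3y were above background on each of them.

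Crx is a homeodomain transcription factor of photoreceptors and pinealocytes, the melatonin-producing cells of the pineal gland. It binds DNA sites with a TAAT core and activates genes of light detection, of the photoreceptor outer segment and of melatonin synthesis. In rodents at night, noradrenaline from sympathetic nerves acts on adrenergic receptors of the pinealocyte, cAMP rises, and a set of genes is induced that includes Aanat, whose enzyme acetylates serotonin on the way to melatonin. ZT20 falls in the dark part of the cycle, when this pathway is active.

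One control night array, labelled ZT20 replicate 3, had a profile closer to the Crx-/- arrays than to its own group, so counts and the genes described in full are given with 12 arrays and again without that array. Over all probe sets its log2 signals correlated at 0.959 to 0.964 with the other 2 control night arrays and at 0.977 to 0.986 with the 3 Crx-/- night arrays. The highest correlation among all 66 pairs of the 12 arrays, 0.986, was between it and Crx-/- ZT20 replicate 3. Control night replicates 1 and 2 correlated at 0.979 with each other, and at 0.955 to 0.966 with the Crx-/- night arrays. Of 5004 genes that differed between genotypes at night without this array, its value lay nearer to the Crx-/- mean in 4149 (82.9%). The array did not enter the choice of those genes, but it was singled out because it resembled the Crx-/- arrays, so leaving it out enlarges the genotype difference by construction. Among 5199 genes called between genotypes at ZT6, in the fit without this array, it lay nearer to the Crx-/- night mean in 3872 (74.5%), and in 1418 (81.2%) of the 1746 whose day difference was 1 or more (log2) in size. Whether the array holds a mislabelled sample was not tested. The ratio of 5' to 3' signal of beta-actin, a measure of RNA length, was 0.197, 0.232 and 0.337 on control night replicates 1, 2 and 3 and 0.197, 0.198 and 0.282 on the Crx-/- ones. The same ratio for Gapdh was 0.576 to 0.691 on the control night arrays and 0.500 to 0.672 on the Crx-/- night arrays, and the part of these ratios in the results was not tested.

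**Figure D1:**
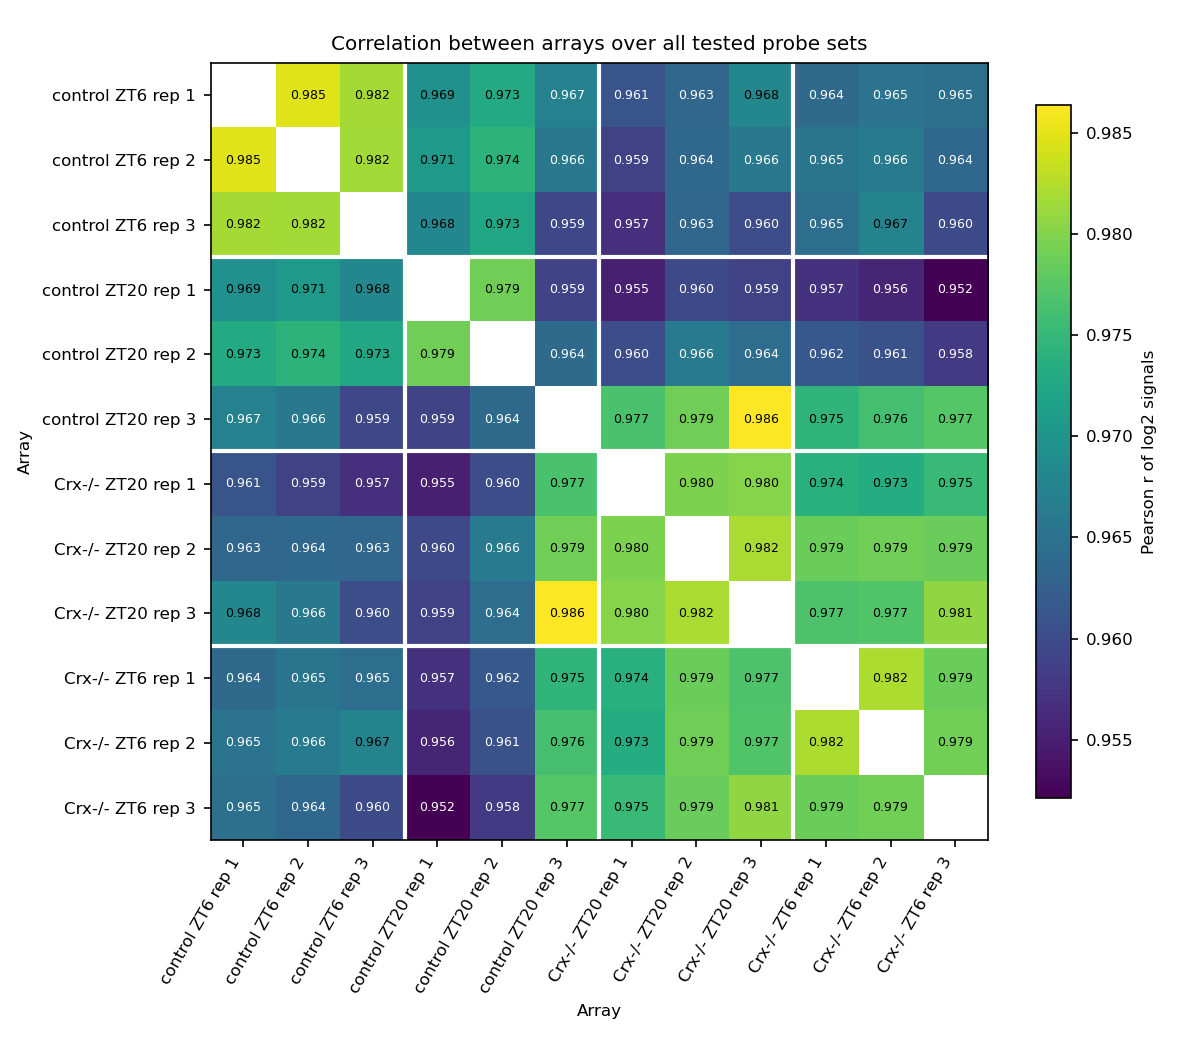
Pearson correlations of log2 signals between each pair of the 12 arrays over all probe sets, ordered by group. The array labelled control ZT20 replicate 3 correlated at 0.977 to 0.986 with the Crx-/- ZT20 arrays and at 0.959 to 0.964 with the other control ZT20 arrays.

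The 6 night arrays carried the defining transcripts of the pinealocyte at high levels. Tph1, the rate-limiting enzyme of serotonin synthesis in the pineal gland, lay between 13.04 and 13.66 (log2 signal) on all of them. Rbp3, the interphotoreceptor retinoid-binding protein shared by retina and pineal, lay between 13.32 and 13.54. Crx itself was read by 2 probe sets, whose position relative to the deleted part is not known, so neither checks the genotype. The brighter probe set gave log2 signals of 13.18, 13.27 and 13.02 in control replicates 1, 2 and 3, and 12.93, 13.03 and 13.06 in Crx-/- replicates 1, 2 and 3. Those ranges overlapped, and the difference was -0.15 ± 0.09 (standard error) with 12 arrays (limma, adjusted p = 0.328) and -0.22 ± 0.08 without control replicate 3 (adjusted p = 0.0751). The dimmer one gave 11.80, 11.93 and 11.03 in control and 10.997, 11.18 and 11.01 in Crx-/- arrays. Here control replicate 3 lay among the Crx-/- values; the difference was -0.52 ± 0.18 with 12 arrays (adjusted p = 0.111) and -0.80 ± 0.09 without that array (adjusted p = 4.66e-05). Crx transcript was therefore well above background on every Crx-/- array.

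Night expression differed between genotypes across a wide set of genes, and how many passed the test depended on the arrays included. A gene was called where its adjusted p was under 0.05 (limma, Benjamini-Hochberg over all 45037 probe sets). With 12 arrays, 281 of 18193 genes were higher in Crx-/- glands (1.54%) and 202 lower (1.11%), and their adjusted p-values ran from 0.0340 to 0.0499, close under the threshold. Without control replicate 3, 2714 genes were higher (14.9%) and 2290 lower (12.6%). All 483 genes called with 12 arrays were among those 5004 and in the same direction. Both fits share every array except control replicate 3, so this overlap is not independent support. A change of at least 1 on the log2 scale, which is a doubling or more, was reached by 73 higher and 56 lower genes with 12 arrays and by 752 and 836 without the array. A change of at least 2 was reached by 5 and 7 genes, and by 109 and 244. The highest Crx-/- array was below the lowest control array for 1661 genes with all 6 night arrays (9.13%), and for 4448 without control replicate 3 (24.4%). The reverse held for 2454 genes (13.5%) and 5137 genes (28.2%). The median difference over all genes was 0.04 in both fits. The 12-array count of 483 fell to 0 when any of 7 other arrays was left out, control ZT20 replicate 1 and Crx-/- ZT20 replicates 1 and 2 among them, and was 1 without control ZT20 replicate 2 and 332 without Crx-/- ZT20 replicate 3 (limma; 3057 to 4666 genes had an unadjusted p under 0.05 where the count was 0). It was also 0 for signals as deposited (3154 unadjusted). Without control replicate 3 the count was 2603 when control replicate 1 was left out too. On signals as deposited without control replicate 3, with no scaling between arrays, 3808 genes were higher and 511 lower, and after trimmed mean scaling 3581 were higher and 1983 lower. For some lists below, the counts on signals as deposited without control replicate 3 are given as well. Of all genes, 20.9% were higher and 2.81% lower on those signals, and these list counts are to be read against those shares. Counts also changed in some lists given without them, as in the microglia and macrophage markers, with 9 higher and 0 lower on those signals.

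Among the 8 genes with the strongest decreases with all 12 arrays were a receptor subunit, photoreceptor proteins and a muscle transcription factor. Gabrd, the delta subunit of extrasynaptic GABA-A receptors, measured 7.55, 7.27 and 4.33 on the control arrays and 2.80, 3.15 and 2.65 on the Crx-/- arrays. All Crx-/- values were at background, defined on each array as the highest signal of its bacterial control probe sets, so the decrease is a bound: at least 4.82-fold with 12 arrays (adjusted p = 0.0395) and at least 9.83-fold without control replicate 3 (adjusted p = 1.53e-05). That array was the lowest control in this gene, as in the next ones. Nxnl1, which encodes rod-derived cone viability factor, measured 7.72, 7.91 and 4.44 in control and 3.98, 3.54 and 3.78 in Crx-/- glands, a decrease of 2.92 ± 0.66 (adjusted p = 0.0455) that became 4.05 ± 0.27 without the array (adjusted p = 3.31e-07). Only 1 of the 3 Crx-/- arrays was above background for Nxnl1, so the size of this decrease depends on the background level. Prph2, the peripherin of photoreceptor disc rims, measured 6.54, 5.83 and 4.12 in control and 2.46, 2.55 and 3.45 in Crx-/- glands, where it was at background. It was at least 2.61-fold lower with 12 arrays (adjusted p = 0.0379) and at least 4.21-fold lower without control replicate 3. Myog, the muscle transcription factor myogenin, was the brightest of the 8. Its log2 signals were 11.94, 11.86 and 9.27 in control and 8.74, 8.76 and 9.04 in Crx-/- glands, and it fell by 2.17 ± 0.51 (adjusted p = 0.0479), or by 3.05 ± 0.18 without the array (adjusted p = 1.23e-07). Genes whose control and Crx-/- arrays overlapped were left out of this selection, so the lack of overlap here is no finding. The other 4 were the neuritin-like gene Nrn1l, coagulation factor XII (F12), Plekhg4 and growth hormone-releasing hormone (Ghrh). F12, Plekhg4 and Ghrh were at background on all Crx-/- arrays, at least 2.00-fold, 2.47-fold and 1.37-fold lower with 12 arrays.

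The 8 strongest increases with 12 arrays included Fstl5, Sox10, Lgi2, Nxph1 and Grin3a. Fstl5, a secreted follistatin-like glycoprotein, measured 3.64, 3.68 and 6.14 in control and 8.21, 6.89 and 6.75 in Crx-/- glands. It rose by 2.79 ± 0.59 (limma, adjusted p = 0.0409), a size that depends on the background level, since control replicates 1 and 2 were at background. Without control replicate 3 it was at least 7.38-fold higher (limma, adjusted p = 5.28e-05). Sox10, a transcription factor of oligodendrocytes and neural crest derivatives, measured 6.89, 6.26 and 8.35 in control and 9.38, 9.28 and 8.54 in Crx-/- glands. Control replicate 3 was again the control nearest to the Crx-/- arrays, and Sox10 rose by 1.90 ± 0.41 (adjusted p = 0.0412) and by 2.49 ± 0.27 without the array (adjusted p = 2.31e-05). Lgi2, a secreted leucine-rich repeat protein, rose by 2.12 ± 0.51 (adjusted p = 0.0497) and 2.96 ± 0.23. Nxph1, a ligand of alpha-neurexins, rose by 2.10 ± 0.42 (adjusted p = 0.0395) and 2.60 ± 0.35. Grin3a, an NMDA receptor subunit, rose by 2.06 ± 0.48 (adjusted p = 0.0483) and 2.68 ± 0.39. The other 3 were Dleu7, Tmem255a and Klhl35. Klhl35 was at background on all 3 control arrays and at least 2.21-fold higher in Crx-/- glands.

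Without control replicate 3 much larger differences appeared, and in most of the genes selected that array lay at or near the Crx-/- values. Hoxc4, a homeobox gene of the HoxC cluster that patterns the trunk and is not a known photoreceptor gene, measured 2.25, 4.86 and 11.16 on control arrays 1, 2 and 3 and 10.65, 10.88 and 11.03 on the Crx-/- arrays. With 12 arrays the groups overlapped and the difference of 4.76 ± 1.46 did not pass (adjusted p = 0.0867); without the array Hoxc4 rose by 7.30 ± 0.49 (adjusted p = 3.79e-07). Control replicate 1 was at background for Hoxc4 and replicate 2 dim, so the fitted size depends on the pseudocount and the background. Ptpn20, a protein tyrosine phosphatase, measured 10.49, 10.12 and 4.34 in control and 4.48, 4.40 and 4.03 in Crx-/- glands. Its difference was -4.02 ± 1.11 with 12 arrays (adjusted p = 0.0677), and it fell by 6.01 ± 0.23 without the array (adjusted p = 6.01e-09). Tal2, a basic helix-loop-helix factor of the developing midbrain, measured 10.91, 10.92 and 4.60 in control and 5.11, 5.54 and 4.29 in Crx-/- glands. Its difference went from -3.83 ± 1.19 (adjusted p = 0.0894) to -5.93 ± 0.31 (adjusted p = 3.61e-08). In all 3 genes the third control array lay at the Crx-/- level, and the remaining control arrays lay far from it.

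Glra1, the alpha 1 subunit of the glycine receptor, showed the same layout upwards, with 2.32, 2.00 and 8.92 in control and 7.94, 7.54 and 8.85 in Crx-/- glands. Control arrays 1 and 2 were at background, so without replicate 3 it was at least 13.1-fold higher (adjusted p = 9.33e-07). The chondrolectin gene Chodl (at least 38.2-fold), the AMPA receptor subunit Gria2 (at least 8.57-fold) and the ciliated-cell gene Tmem212 (at least 6.87-fold) were likewise at background on both of those control arrays. Nefl, the neurofilament light chain, rose by 4.32 ± 0.44, the smoothelin-like gene Smtnl2 by 4.71 ± 0.16 and Gm20383 by 4.75 ± 0.19. Downwards, the galactosidase-like gene Glb1l3 measured 12.05, 11.79 and 6.51 in control and 7.08, 7.07 and 6.61 in Crx-/- glands, and fell by 5.00 ± 0.22. Fads2b, of the fatty acid desaturase family, was at background on all Crx-/- arrays and at least 46.9-fold lower. Ifng, the cytokine interferon gamma, was at least 18.1-fold lower and Cwh43 at least 11.2-fold lower. The chemokine gene Ccl3 fell by 5.13 ± 0.49 and the carboxypeptidase gene Cpm by 4.91 ± 0.31. With 12 arrays none of the genes of this paragraph passed, with adjusted p-values of 0.0569 to 0.241.

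**Figure D2:**
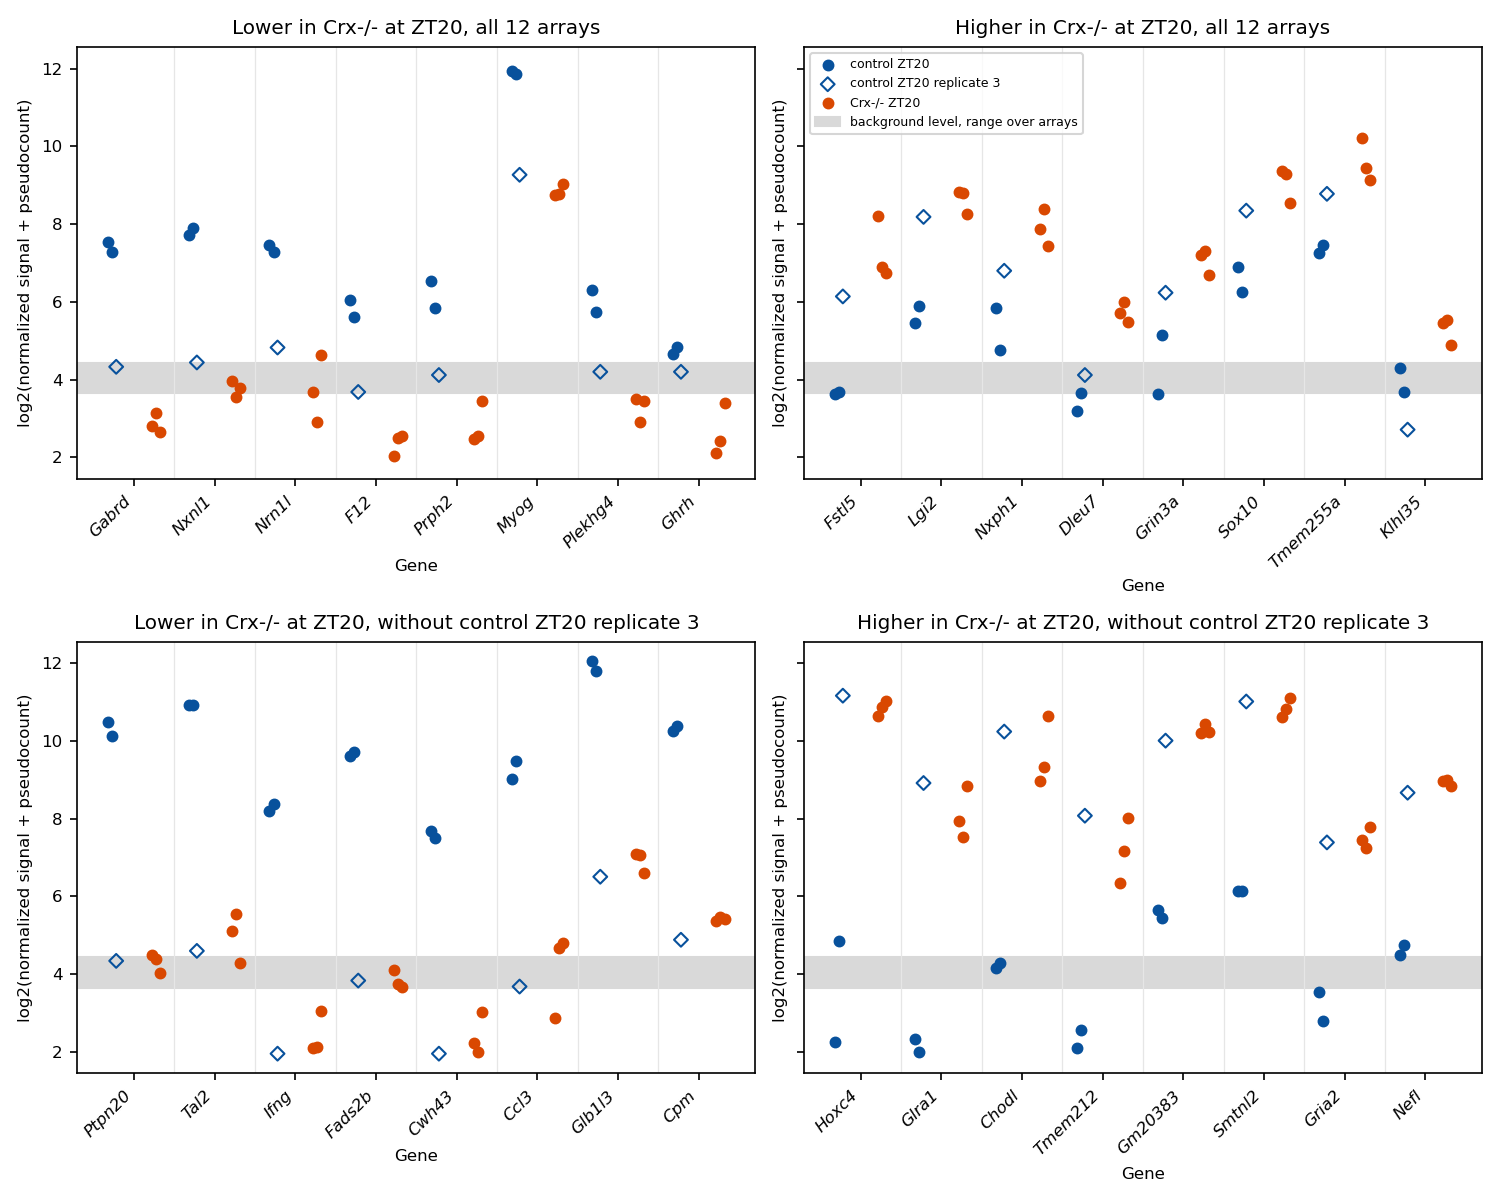
Log2 signal of the genes with the strongest differences on each of the 6 night arrays, control replicate 3 drawn as its own symbol. In the genes named from 12 arrays (upper panels) control replicate 3 is the control nearest to the Crx-/- arrays in all but Klhl35, and in those named without it (lower panels) it lies at or near the Crx-/- arrays.

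Most measured genes of melatonin synthesis were lower in Crx-/- glands at night once control replicate 3 was left out, though Ddc was not and Tph2 was near background. Asmt, also on this list, had no usable probe set and was not measured. Of 4 measured members, none was called with 12 arrays (limma; 3 had an unadjusted p under 0.05, 2 of them lower) and 3 were lower without it, where 12.6% of all genes were lower. In this and the following paragraphs a change given without its fit is the one without control replicate 3. Over all lists 185 members were called without that array. With 12 arrays all 185 had the same sign, their differences were 0.368 to 1.01 times as large (median 0.684), 20 were called, and the others had adjusted p-values of 0.0502 to 0.668 (limma). Both fits share every array except control replicate 3, so the same sign was largely set in advance and is no separate support. Aanat, the penultimate enzyme of the pathway, measured 11.34, 11.05 and 9.52 in control and 9.52, 9.16 and 9.40 in Crx-/- glands. Control arrays 1 and 2 were above all Crx-/- arrays and control replicate 3 equalled the highest of them. The difference was -1.28 ± 0.41 with 12 arrays (adjusted p = 0.0966), and without the array Aanat fell by 1.83 ± 0.30 (adjusted p = 0.000671). Tph1 measured 13.65, 13.66 and 13.09 in control and 13.04, 13.10 and 13.05 in Crx-/- glands. Its difference was -0.40 ± 0.12 with 12 arrays (adjusted p = 0.0758), and without the array it fell by 0.59 ± 0.06 (adjusted p = 7.59e-06). Tph2, the neuronal form of the enzyme, was near background throughout and fell by 1.34 ± 0.42 without the array (adjusted p = 0.0350). Ddc, the decarboxylase that makes serotonin, measured 13.04, 13.11 and 13.10 in control and 13.32, 13.18 and 13.19 in Crx-/- glands, and its difference of 0.16 ± 0.06 did not pass (adjusted p = 0.104). Tetrahydrobiopterin is the cofactor of the tryptophan hydroxylases. Of 7 genes of its synthesis and recycling, 1 was lower with 12 arrays, and 4 were lower and 1 higher without the array, or 0 and 1 on signals as deposited. Gch1, the first enzyme of cofactor synthesis, went against the others, with 10.80, 10.53 and 12.16 in control and 11.83, 12.12 and 12.28 in Crx-/- glands, and it rose by 1.41 ± 0.12 without the array (adjusted p = 3.76e-06; 0.1003 with 12 arrays). Spr, which completes the synthesis, measured 9.52, 9.64 and 9.17 in control and 8.16, 8.57 and 8.57 in Crx-/- glands. It was lower in both fits, by 1.01 ± 0.21 (adjusted p = 0.0407) and 1.15 ± 0.21 (adjusted p = 0.00182). Gchfr, the feedback regulator of Gch1, fell by 1.20 ± 0.14, Pcbd1 by 0.50 ± 0.09 and Qdpr by 0.26 ± 0.06, all without the array. Of 7 genes of monoamine breakdown and transport, none was called with 12 arrays (3 had an unadjusted p under 0.05), and 3 were called without the array. The monoamine oxidases Maoa and Maob rose by 0.85 ± 0.12 and 1.09 ± 0.18. Slc7a5, a transporter of large neutral amino acids including tryptophan, measured 12.02, 11.95 and 9.98 in control and 10.64, 10.09 and 9.57 in Crx-/- glands and fell by 1.89 ± 0.23 (adjusted p = 6.01e-05; 0.117 with 12 arrays).

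Genes induced at night or by cAMP were called in both directions. Of 24 measured, 1 was higher with 12 arrays. Without control replicate 3, 3 were higher and 7 lower, against 14.9% and 12.6% of all genes, with a median difference of -0.42 against 0.04 over all genes. On signals as deposited 4 were higher and 3 lower, against 20.9% and 2.81% of all genes. Rgs2, a regulator of G-protein signalling and the member called in both fits, measured 11.54, 11.98 and 12.67 in control and 12.89, 12.98 and 12.83 in Crx-/- glands, and rose by 0.83 ± 0.20 (adjusted p = 0.0487) and 1.14 ± 0.12 (adjusted p = 1.46e-05). Crem, whose night product ICER represses cAMP-driven transcription, measured 11.15, 11.12 and 9.45 in control and 9.51, 9.73 and 9.29 in Crx-/- glands. It fell by 1.62 ± 0.14 without the array (adjusted p = 2.87e-06; 0.0935 with 12 arrays). Atf3, a stress- and cAMP-responsive factor, measured 9.59, 9.48 and 6.77 in control and 6.91, 7.34 and 6.51 in Crx-/- glands and fell by 2.61 ± 0.23 (adjusted p = 4.94e-06; 0.1004 with 12 arrays). The insulin receptor substrate Irs2 fell by 1.91 ± 0.28, the orphan nuclear receptor Nr4a1 by 1.09 ± 0.29, the kinase gene Camk1g by 1.07 ± 0.17 and Dio2, the thyroid hormone-activating deiodinase, by 0.96 ± 0.27. Slc15a1, a peptide transporter that rises at night in the rat pineal, went the other way. It measured 5.64, 6.49 and 8.64 in control and 8.77, 8.99 and 8.63 in Crx-/- glands and rose by 2.73 ± 0.24 without the array (adjusted p = 4.65e-06; 0.0681 with 12 arrays). The immediate-early gene Egr3 rose by 1.34 ± 0.43. Of 22 genes of adrenergic and cAMP signalling none was called with 12 arrays (limma; 8 had an unadjusted p under 0.05), and 3 were higher and 6 lower without the array (4 and 2 as deposited). Adra1b, the alpha 1B adrenergic receptor, measured 6.68, 6.70 and 2.75 in control and 3.57, 2.82 and 4.91 in Crx-/- glands. Only 1 Crx-/- array was above background, and the decrease without the array was 2.92 ± 0.57 (adjusted p = 0.00240). Adcy3, an adenylyl cyclase, measured 10.83, 10.58 and 8.01 in control and 7.79, 7.97 and 7.62 in Crx-/- glands, a decrease of 2.91 ± 0.14 (adjusted p = 2.07e-08; 0.0559 with 12 arrays). Adcy5, another cyclase, rose by 1.05 ± 0.14. The dopamine receptor Drd4 fell by 1.51 ± 0.40, the VIP receptor Vipr2 by 0.92 ± 0.23 and the catalytic kinase subunit Prkacb by 0.50 ± 0.10.

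Genes of phototransduction, most of which the pineal shares with the retina, were often lower at night once control replicate 3 was left out. Of 30 measured, 3 were lower and none higher with 12 arrays. Without control replicate 3, 16 were lower and 2 higher, against 12.6% and 14.9% of all genes. On signals as deposited 9 were lower and 2 higher, against 2.81% and 20.9% of all genes. Control arrays 1 and 2 lay above all Crx-/- arrays in 22 of the 30, against 24.4% of all genes, and all 3 control arrays did so in 6, against 9.13%. The median difference was -0.46 with 12 arrays and -0.71 without the array. The summed signal of the 30 genes was 62747, 58308 and 43006 in control and 39187, 40730 and 40955 in Crx-/- glands. In whole-gland RNA, fewer cells of a type and less RNA per cell cannot be told apart. Pde6g, the inhibitory subunit of the photoreceptor phosphodiesterase, measured 13.28, 13.18 and 11.75 in control and 11.32, 11.43 and 11.51 in Crx-/- glands, and fell by 1.32 ± 0.28 (adjusted p = 0.0412) and by 1.81 ± 0.08 without the array (adjusted p = 1.36e-08). Gnb5, the G-protein beta subunit that partners Rgs9, fell by 0.78 ± 0.16 (adjusted p = 0.0395) and 0.99 ± 0.11. Ppef2, a photoreceptor phosphatase, measured 7.89, 7.66 and 6.00 in control and 4.93, 5.73 and 5.36 in Crx-/- glands, and fell by 1.84 ± 0.41 (adjusted p = 0.0450) and 2.43 ± 0.28. Gngt1, the gamma subunit of rod transducin, measured 11.10, 11.05 and 8.27 in control and 8.11, 8.24 and 8.29 in Crx-/- glands; its decrease of 2.86 ± 0.12 without the array (adjusted p = 6.01e-09) was 1.93 ± 0.52 with 12 arrays and did not pass (adjusted p = 0.0650). Slc24a1, the rod sodium-calcium-potassium exchanger, measured 9.9999, 10.11 and 6.83 in control and 6.68, 6.91 and 6.68 in Crx-/- glands, and fell by 3.30 ± 0.19 without the array (adjusted p = 1.23e-07; 0.0680 with 12 arrays). The cone members Gnat2 (cone transducin), Pde6c (cone phosphodiesterase) and Arr3 (cone arrestin) fell by 1.01 ± 0.14, 1.25 ± 0.10 and 1.76 ± 0.25. Against this direction, Pdc (phosducin) rose by 0.88 ± 0.28 and Rgs9, the GTPase accelerator, by 0.76 ± 0.20. Cnga1 and Rcvrn were at background on all 6 arrays.

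Genes of photoreceptor structure and the retinoid cycle, and of the ribbon synapse, were called in both directions. Of 24 structural genes, 3 were lower with 12 arrays. Without control replicate 3, 10 were lower and 2 higher, against 12.6% and 14.9% of all genes. On signals as deposited 8 were lower and 3 higher, against 2.81% and 20.9% of all genes. The 3 lower with 12 arrays were Nxnl1 and Prph2, given above, and Rom1, the disc-rim partner of Prph2. Rom1 measured 12.36, 12.38 and 11.74 in control and 11.19, 11.27 and 11.45 in Crx-/- glands, and fell by 0.86 ± 0.14 (adjusted p = 0.0361) and 1.07 ± 0.08 (adjusted p = 1.42e-06). Mpp4, a scaffold of photoreceptor terminals, measured 12.59, 12.43 and 10.06 in control and 9.78, 9.58 and 10.13 in Crx-/- glands, and fell by 2.67 ± 0.13 without the array (adjusted p = 2.72e-08; 0.0534 with 12 arrays). Lrat, which esterifies retinol, fell by 2.38 ± 0.28, and Tulp1, needed for transport to the outer segment, by 1.52 ± 0.16. The interphotoreceptor matrix gene Impg1 went up: it measured 4.82, 4.73 and 7.39 in control and 6.88, 7.35 and 7.11 in Crx-/- glands and rose by 2.33 ± 0.26. Abca4, the retinal transporter of photoreceptor discs, rose by 0.74 ± 0.10. Of 23 ribbon synapse genes none was called with 12 arrays (10 had an unadjusted limma p under 0.05). Without the array 11 were lower and 4 higher, against 12.6% and 14.9% of all genes. On signals as deposited 3 were lower and 5 higher, against 2.81% and 20.9% of all genes. Lrit1, a leucine-rich repeat protein of photoreceptor synapses, measured 12.18, 12.20 and 10.68 in control and 10.48, 10.65 and 10.87 in Crx-/- glands and fell by 1.52 ± 0.14 (adjusted p = 4.85e-06; 0.0810 with 12 arrays). The vesicle calcium sensor Syt1 fell by 1.74 ± 0.19, Egflam (pikachurin) by 1.24 ± 0.19 and the active-zone gene Bsn by 1.06 ± 0.19. The complexins of retinal ribbon synapses, Cplx3 and Cplx4, fell by 0.55 ± 0.07 and 0.73 ± 0.07. Rimbp2, an active-zone binding protein, rose by 2.07 ± 0.21, and Ctbp2, whose locus encodes the ribbon protein, by 0.53 ± 0.08.

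**Figure D3:**
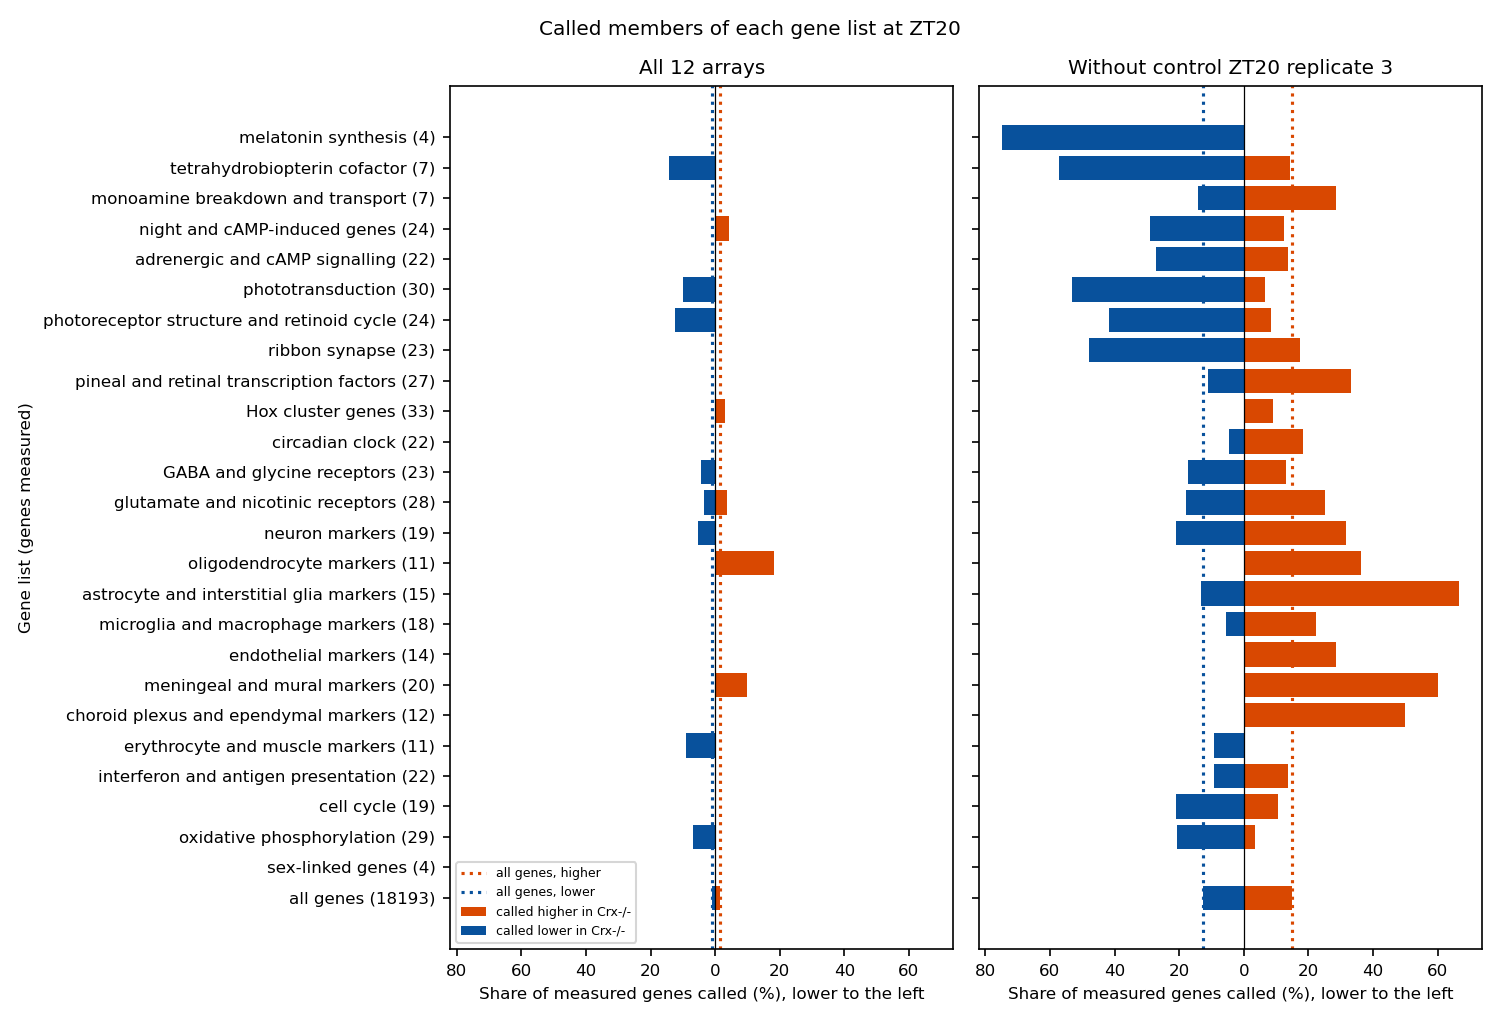
Share of measured members of each gene list called higher or lower in Crx-/- glands at ZT20, with 12 arrays and without control replicate 3. Dotted lines mark the shares of all genes. Without that array the largest lower share was in melatonin synthesis (3 of 4) and the largest higher one in astrocyte and interstitial glia markers (10 of 15). By number, and with list sizes unequal, phototransduction held the most lower members (16 of 30) and the meningeal and mural list the most higher ones (12 of 20).

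The promoters of 4 genes that were lower at night and of the cAMP-responsive gene Dio2 are shown because they carry letters of the 2 motifs searched for. Each stretch is a window of 300 bases that holds the annotated start 50 bases before its end, on the gene's strand (RefSeq, build GRCm38.p6). Capitals mark TAATCC or its reverse complement GGATTA, the core sequence that Crx prefers, and in Dio2 the full cAMP response element TGACGTCA.
Gngt1 (chr6:3993758-3994057, plus strand): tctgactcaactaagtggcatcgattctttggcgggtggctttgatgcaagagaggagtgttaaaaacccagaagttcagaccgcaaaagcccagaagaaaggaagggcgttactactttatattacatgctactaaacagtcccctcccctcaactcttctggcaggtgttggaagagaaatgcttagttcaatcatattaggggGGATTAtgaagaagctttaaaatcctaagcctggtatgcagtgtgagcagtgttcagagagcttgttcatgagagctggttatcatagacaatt
Mpp4 (chr1:59161587-59161886, minus strand): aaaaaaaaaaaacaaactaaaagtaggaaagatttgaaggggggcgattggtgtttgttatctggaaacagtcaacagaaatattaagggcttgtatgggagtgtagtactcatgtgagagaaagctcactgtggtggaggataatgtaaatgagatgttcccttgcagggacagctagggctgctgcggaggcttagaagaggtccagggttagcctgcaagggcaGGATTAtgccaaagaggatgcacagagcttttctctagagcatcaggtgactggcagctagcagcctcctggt
Lrit1 (chr14:37054580-37054879, plus strand): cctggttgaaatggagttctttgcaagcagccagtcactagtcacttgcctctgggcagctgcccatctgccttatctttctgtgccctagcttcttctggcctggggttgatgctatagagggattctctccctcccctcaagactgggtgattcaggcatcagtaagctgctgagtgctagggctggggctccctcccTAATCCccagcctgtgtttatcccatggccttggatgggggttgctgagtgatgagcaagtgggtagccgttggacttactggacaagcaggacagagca
Ppef2 (chr5:92256229-92256528, minus strand): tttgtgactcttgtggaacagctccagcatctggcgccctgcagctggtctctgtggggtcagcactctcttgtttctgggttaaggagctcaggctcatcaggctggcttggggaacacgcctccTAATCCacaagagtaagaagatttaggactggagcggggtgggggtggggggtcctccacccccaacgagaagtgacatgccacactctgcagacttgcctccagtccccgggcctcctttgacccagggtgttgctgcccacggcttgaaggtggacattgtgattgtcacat
Dio2 (chr12:90738989-90739288, minus strand): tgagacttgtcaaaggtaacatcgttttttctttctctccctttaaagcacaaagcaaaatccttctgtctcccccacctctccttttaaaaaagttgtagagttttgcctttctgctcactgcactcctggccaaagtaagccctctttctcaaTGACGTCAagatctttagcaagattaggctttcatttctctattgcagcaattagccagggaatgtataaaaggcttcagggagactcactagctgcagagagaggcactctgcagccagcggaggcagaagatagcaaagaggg
The first base of the marked letters lies at -44 in Gngt1, -23 in Mpp4, -50 in Lrit1, -124 in Ppef2 and -95 in Dio2, counted from the annotated start. Mpp4 has another annotated promoter that holds no match. TAATCC on either strand was found in 6.10% of the 18006 promoters of tested genes, in 6.89% of those of genes lower at night without control replicate 3, in 8.25% of those lower by at least 1 on the log2 scale, and in 5.86% of those higher. With 12 arrays it was found in 7.31% of those lower and 6.37% of those higher. TGACGTCA, which reads the same on both strands, was found in 2.50% of promoters of tested genes, 3.40% of those lower without control replicate 3, 2.51% of those lower by at least 1, which is about the share of all, and 1.64% of those higher. With 12 arrays the shares were 5.02% of those lower and 0.955% of those higher. The 2 motifs share no overlapping letters as searched. No match to either was found in these windows of Hoxc4, Ptpn20, Tal2, Glb1l3, Slc24a1 or Nxnl1. A match is a stretch of letters only, and no binding was measured.

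Of the transcription factors of retina and pineal, more were called higher than lower. Of 27 measured none was called with 12 arrays (limma; 11 had an unadjusted p under 0.05), and 9 were higher and 3 lower without control replicate 3, against 14.9% and 12.6% of all genes. Isl1, a LIM-homeodomain factor of neurons, measured 6.42, 7.02 and 10.44 in control and 10.53, 10.25 and 10.47 in Crx-/- glands and rose by 3.70 ± 0.19 (adjusted p = 3.21e-08; 0.0727 with 12 arrays). Prox1, a homeobox factor of retinal horizontal cells and of the lens, measured 4.69, 5.42 and 8.69 in control and 7.99, 8.31 and 8.23 in Crx-/- glands and rose by 3.12 ± 0.28 (adjusted p = 5.66e-06). Neurod2, a neuronal basic helix-loop-helix factor, rose by 2.43 ± 0.14. In these 3 genes control replicate 3 lay at the Crx-/- level. Otx2, the homeodomain factor upstream of Crx, measured 12.22, 12.14 and 12.69 in control and 12.53, 12.48 and 12.58 in Crx-/- glands, a rise of 0.35 ± 0.07 without the array (adjusted p = 0.00375) and a difference of 0.18 ± 0.12 with 12 arrays (adjusted p = 0.402). Pax6, Lhx3, Neurod1, Neurod4 and Six3 rose by 0.27 to 0.88. Sebox, a homeobox gene, measured 7.09, 7.35 and 4.52 in control and 4.71, 5.41 and 4.66 in Crx-/- glands and fell by 2.29 ± 0.31. The homeobox gene Rax fell by 0.84 ± 0.18. The rod factor Nrl was at background on all 6 arrays.

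Few Hox cluster genes carried signal in the gland. Of 33 measured, 18 were at background on all 6 night arrays, 1 was higher with 12 arrays and 3 were higher without control replicate 3, all of the HoxC cluster. Of all genes, 1.54% were higher with 12 arrays and 14.9% without control replicate 3. Hoxc5, the neighbour of Hoxc4 in that cluster, measured 8.98, 9.18 and 10.04 in control and 10.44, 10.28 and 10.62 in Crx-/- glands, and rose by 1.05 ± 0.24 (adjusted p = 0.0462) and by 1.37 ± 0.18 without the array (adjusted p = 0.000118). Hoxc6 measured 5.05, 4.71 and 6.01 in control and 6.16, 7.26 and 5.81 in Crx-/- glands and rose by 1.53 ± 0.39 without the array (adjusted p = 0.0131; 0.120 with 12 arrays). The summed signal of the 33 genes was 847, 916 and 3634 on control arrays and 3367, 3572 and 3968 on Crx-/- arrays. Most of that sum came from Hoxc4 and Hoxc5, so it does not describe the Hox clusters as a whole.

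Clock genes were called at night in a share near that of all genes. Of 22 measured none was called with 12 arrays (6 had an unadjusted limma p under 0.05). Without control replicate 3, 4 were higher and 1 lower, where 14.9% of all genes were higher and 12.6% lower. On signals as deposited 6 were higher and 0 lower, against 20.9% and 2.81% of all genes. The median difference of the 22 was 0.04 with 12 arrays and 0.02 without control replicate 3. Per3 measured 10.94, 10.54 and 11.82 in control and 12.15, 11.90 and 12.10 in Crx-/- glands and rose by 1.31 ± 0.18 (adjusted p = 0.000157; 0.0636 with 12 arrays). The PAR-domain factors Tef and Hlf, which act on D-box elements, rose by 0.78 ± 0.10 and 0.51 ± 0.13, and the deubiquitinase gene Usp2 by 0.62 ± 0.08. Nfil3, which represses through the same elements, fell by 0.47 ± 0.12. Per1, an immediate target of cAMP signalling in the rodent pineal, measured 8.74, 8.76 and 8.28 in control and 8.32, 8.51 and 7.94 in Crx-/- glands and did not pass in either fit (differences of -0.33 ± 0.19, adjusted p = 0.331, and -0.49 ± 0.18, adjusted p = 0.0685).

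Transmitter receptor genes were called in both directions, in shares near those of all genes (14.9% higher and 12.6% lower) for the GABA and glycine receptors. Of 23 GABA and glycine receptor genes, 1 was lower with 12 arrays (Gabrd), and 3 were higher and 4 lower without control replicate 3. On signals as deposited 9 were higher and 3 lower, against 20.9% and 2.81% of all genes. Gabrr1, a subunit of retinal GABA receptors, measured 8.99, 8.99 and 5.75 in control and 5.54, 6.72 and 5.28 in Crx-/- glands and fell by 3.15 ± 0.36 (adjusted p = 3.70e-05). Gabrr2, a related subunit, measured 6.26, 6.95 and 7.93 in control and 8.85, 8.40 and 8.05 in Crx-/- glands and rose by 1.83 ± 0.53 (adjusted p = 0.0251). Of 28 glutamate and nicotinic receptor genes, 1 was higher (Grin3a) and 1 lower (Chrna3) with 12 arrays, and 7 were higher and 5 lower without the array (10 and 3 as deposited). Chrna3, a nicotinic subunit of autonomic ganglia, measured 12.33, 12.28 and 11.75 in control and 11.16, 11.26 and 11.61 in Crx-/- glands, and fell by 0.78 ± 0.16 (adjusted p = 0.0403) and 0.96 ± 0.14. Its partners in ganglionic receptors, Chrnb4 and Chrna5, fell by 0.71 ± 0.07 and 1.20 ± 0.28, Chrna7 by 2.47 ± 0.24 and Chrnb2 by 1.07 ± 0.14, while Chrna6 rose by 1.17 ± 0.18. Of 4 NMDA and metabotropic receptor genes called without the array (Grin2c, Grin2d, Grin3a and Grm7), all rose, by 1.11 to 2.68. Among 19 neuron markers, 1 was lower with 12 arrays, and 6 were higher and 4 lower without the array. Tubb3, the neuronal beta-tubulin, measured 10.45, 10.41 and 5.95 in control and 6.09, 6.08 and 5.19 in Crx-/- glands and fell by 4.64 ± 0.24 (adjusted p = 4.09e-08; 0.0643 with 12 arrays). The neurofilaments split: Nefl and Nefm (by 1.94 ± 0.29) rose, and Nefh, the heavy chain, fell by 3.56 ± 0.16 from 11.48, 11.78 and 7.84 to 8.05, 8.18 and 7.98. The microtubule protein Map2 fell in both fits, by 0.41 ± 0.09 (adjusted p = 0.0462) and 0.53 ± 0.07.

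Of 90 markers of other cells that a dissected pineal gland can hold, 4 were higher and 0 lower with 12 arrays, and 40 were higher and 3 lower without control replicate 3, against 14.9% and 12.6% of all genes. Of 20 meningeal and mural markers, 2 were higher with 12 arrays (Pdgfra, by 0.54 ± 0.12, adjusted p = 0.0441, and Ogn, by 0.46 ± 0.10, adjusted p = 0.0433) and 12 without control replicate 3, none lower. Their summed signal was 50523, 53901 and 71961 in control and 72902, 75613 and 68958 in Crx-/- glands. Of 15 astrocyte and interstitial glia markers none was called with 12 arrays (limma; 10 had an unadjusted p under 0.05), and 10 were higher and 2 lower without the array. Aqp4, the astrocyte water channel, measured 10.04, 10.44 and 11.56 in control and 11.38, 11.45 and 11.53 in Crx-/- glands and rose by 1.21 ± 0.13 (adjusted p = 2.34e-05), and the glutamate transporter Slc1a3 rose by 1.93 ± 0.32. Fabp7, a fatty acid-binding protein of radial glia, fell by 2.21 ± 0.11 from 12.63, 12.62 and 10.67 to 10.29, 10.28 and 10.70. The summed glial signal was 42334, 43874 and 51381 in control and 49380, 50452 and 50208 in Crx-/- glands. Of 11 oligodendrocyte markers 2 were higher with 12 arrays and 4 without the array. Besides Sox10, these were Cnp, a myelin enzyme (0.49 ± 0.10, adjusted p = 0.0402, and 0.51 ± 0.10), the myelin protein gene Mbp (1.31 ± 0.19 without the array) and Cldn11 (0.82 ± 0.12). Their summed signal was 5919, 6242 and 9279 in control and 11041, 11242 and 10186 in Crx-/- glands. Of 12 choroid plexus and ependymal markers, none was called with 12 arrays (limma; 6 had an unadjusted p under 0.05) and 6 were higher without the array, among them Kl, Kcne2 and Clic6 of choroid plexus (by 0.58 to 0.69) and the ciliary genes Ccdc153 and Enkur (by 2.05 ± 0.53 and 1.27 ± 0.18). Their summed signal was 29009, 37610 and 41488 in control and 41660, 42249 and 42785 in Crx-/- glands. Of 18 microglia and macrophage markers none was called with 12 arrays (limma; 7 had an unadjusted p under 0.05), and 4 were higher and 1 lower without the array, with sums of 28624, 27396 and 30367 in control and 39270, 39234 and 34645 in Crx-/- glands. Of 14 endothelial markers none was called with 12 arrays (limma; 2 had an unadjusted p under 0.05) and 4 were higher without the array, with sums of 21468, 21766 and 22859 against 24674, 25638 and 21892. The meningeal, glial and oligodendrocyte sums on control replicate 3 lay above those on the other 2 control arrays, while its microglial sum lay with the control arrays. The part of these cells in the differences of other genes was not tested. Chat and Tac2 among the neuron markers, Trem2 among the microglial ones and the muscle and erythrocyte genes Acta1, Myh4 and Hba-a1 were at background on all 6 arrays.

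The remaining lists held at most 2 members each called with 12 arrays, where 1.54% of all genes were higher and 1.11% lower. In all but the sex-linked genes the balance of higher and lower members shifted with the scaling. Of all genes, 14.9% were higher and 12.6% lower without control replicate 3, and 20.9% and 2.81% on signals as deposited without that array. Of 22 interferon and antigen presentation genes none was called with 12 arrays (limma; 5 had an unadjusted p under 0.05), and 3 were higher and 2 lower without control replicate 3 (9 and 0 on signals as deposited). Oasl2, Gbp2 and Ifi27 rose by 0.60 to 1.31, and the interferon regulators Irf7 and Stat2 fell by 1.47 ± 0.44 and 0.95 ± 0.24. Of 19 cell cycle genes none was called with 12 arrays (limma; 6 had an unadjusted p under 0.05), and 4 were lower and 2 higher without the array (2 and 5 as deposited). Bub1b, a spindle checkpoint kinase, measured 8.46, 8.61 and 5.89 in control and 5.28, 6.18 and 5.96 in Crx-/- glands and fell by 2.73 ± 0.27. The mitotic kinase gene Aurka fell by 1.66 ± 0.21. Of 29 oxidative phosphorylation genes, 2 were lower with 12 arrays, and 6 were lower and 1 higher without the array (1 and 2 as deposited), with a median difference near 0 in both. Uqcrc1, of complex III, fell by 0.83 ± 0.17 (adjusted p = 0.0403) and 1.05 ± 0.13, and Ndufa4, a cytochrome oxidase-associated subunit, by 0.54 ± 0.09 (adjusted p = 0.0361) and 0.59 ± 0.09. Of 11 erythrocyte and muscle genes, Bpgm, which makes the haemoglobin effector 2,3-bisphosphoglycerate, was the member called, lower by 0.51 ± 0.11 (adjusted p = 0.0433) and 0.61 ± 0.10. On signals as deposited without control replicate 3, 1 member of that list was higher and 0 lower. None of the 4 measured sex-linked genes was called at night in either fit (limma; 0 had an unadjusted p under 0.05 with 12 arrays). Without control replicate 3 their median difference was 0.13 at night and -1.82 by day, with 0 called at ZT6. The part of sex in the day comparison and in the interactions was not tested.

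The night comparison was set against the day comparison, which uses the other 6 arrays. At ZT6, 2122 genes were higher (11.7%) and 1370 lower (7.53%) with 12 arrays, and 2987 (16.4%) and 2212 (12.2%) with the spread estimated without control ZT20 replicate 3. Without that array, 1769 of the 2714 genes higher at night (65.2%) were also higher by day and 14 were lower by day. Of the 2290 lower at night, 1309 (57.2%) were also lower by day and 32 higher. With 12 arrays, 189 of the 281 genes higher at night (67.3%) were also higher by day and 0 lower, and 110 of the 202 lower at night (54.5%) were also lower by day and 2 higher. Without the array, the 1769 and 1309 shared genes are each 59.2% of the genes called in that direction by day. Across all 18193 genes, which are not independent replicates, the night and day differences correlated at 0.653 without the array and at 0.619 with it; the 2 comparisons share the estimate of the spread but no arrays.

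**Figure D4:**
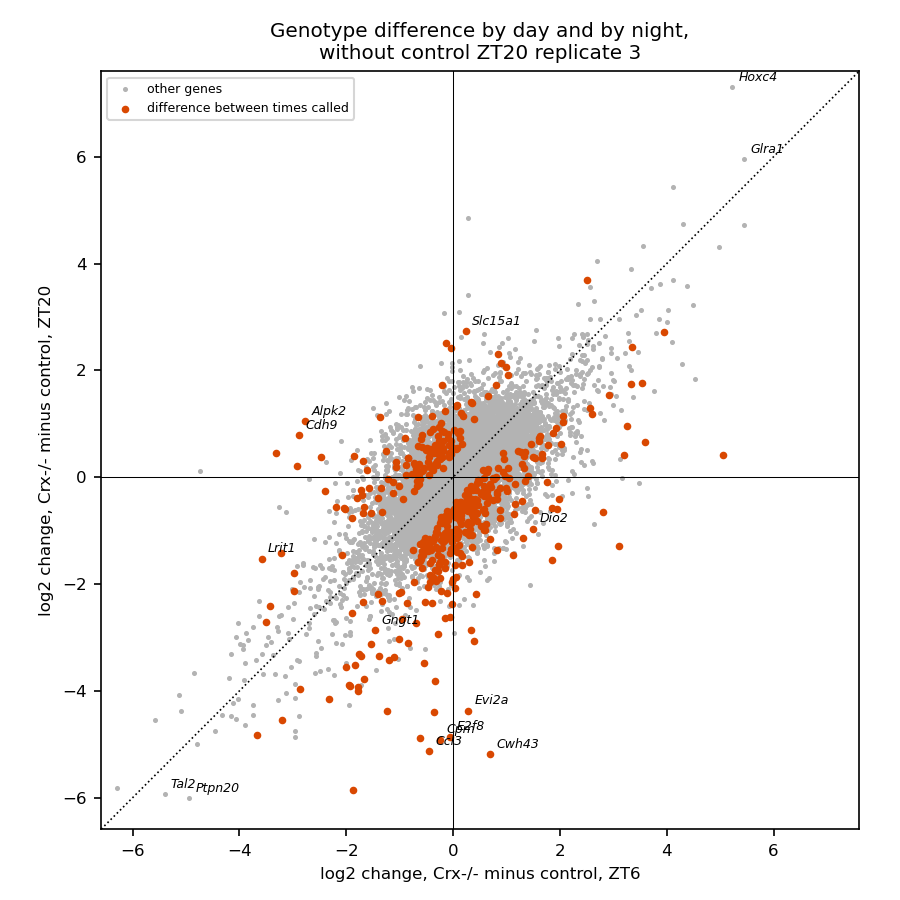
Difference between Crx-/- and control (log2) at ZT20 against that at ZT6 for each of 18193 genes, without control ZT20 replicate 3. The differences correlated at 0.653 across genes, and the genes whose night and day differences differed by the interaction test lie away from the diagonal.

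A test of the difference between night and day (the genotype by time interaction) called 5 genes with 12 arrays (0.0275%), 2 with a positive value (0.011%) and 3 with a negative one (0.0165%). Without control replicate 3 it called 446 (2.45%), 143 positive (0.786%) and 303 negative (1.67%). That count was 30 on signals as deposited, 95 without control ZT20 replicate 1, 157 without control ZT20 replicate 2 and 285 with a replicate block. Of the 446, 182 were called at night only, 133 of them lower in Crx-/- glands, 111 by day only, 107 at both times in the same direction and 46 in opposite directions. Evi2a, a membrane protein gene at the Nf1 locus, measured 11.33, 11.63 and 6.95 on the control night arrays and 6.93, 7.35 and 7.04 on the Crx-/- night arrays. By day it measured 7.54, 7.60 and 8.13 in control and 8.20, 8.13 and 7.79 in Crx-/- glands. Its signal was thus high on 2 arrays, control ZT20 replicates 1 and 2, and near or below the day level on all others; the interaction was -4.66 ± 0.29 (adjusted p = 1.52e-05). E2f8, an atypical E2F repressor of the cell cycle, had the same layout, with 10.54, 9.87 and 5.17 in control and 5.74, 5.77 and 4.54 in Crx-/- glands at night, and 5.49, 6.17 and 6.75 and 6.77, 5.88 and 5.60 by day (interaction -4.80 ± 0.61, adjusted p = 0.00167). Cpm, Ccl3 and Cwh43 shared it, with interactions of -4.67 ± 0.42, -4.68 ± 0.66 and -5.88 ± 0.69. The night decrease of Cwh43 is a bound, so the size of its interaction depends on the background level. None of these 5 had an interaction that passed with 12 arrays. Dio2 was lower in Crx-/- glands at night and higher by day, when it measured 6.52, 7.12 and 7.33 in control and 8.25, 8.21 and 8.996 in Crx-/- glands (interaction -2.46 ± 0.36). Irs2 and Atf3 were lower at night, with day differences near 0 (interactions of -1.91 and -2.56). Slc15a1 was higher at night and differed by 0.24 by day (interaction 2.49). By day Aanat measured 7.35, 7.35 and 7.88 in control and 6.47, 5.24 and 5.50 in Crx-/- glands, below the night values of both genotypes. It differed by -1.79 by day and -1.83 at night, and its interaction of -0.05 ± 0.40 did not pass (adjusted p = 0.975).

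Among members of the photoreceptor lists the night and day decreases were unequal in both directions. Lrit1 fell less at night than by day, when it measured 11.86, 11.68 and 11.89 in control and 8.39, 7.99 and 8.29 in Crx-/- glands (interaction 2.06). Gngt1 fell more at night, since by day it measured 11.92, 11.76 and 11.98 in control and 10.24, 10.56 and 10.46 in Crx-/- glands (interaction -1.39). Prph2, Arr3 and Cngb3 also had negative interactions, of -2.26, -1.48 and -1.08. The night decrease of Prph2 is a bound, so the size of its interaction depends on the background level. Meningeal collagens were higher in Crx-/- glands by more at day than at night, with interactions of -0.68 in Col1a1, -0.62 in Col1a2 and -1.16 in Col3a1. The 5 genes called with 12 arrays were Sphk2 (a sphingosine kinase, interaction -1.61), Cpz (carboxypeptidase Z, -1.99), Rprm (reprimo, -3.13), Alpk2 (3.71) and Mfsd4b2 (3.79). Sphk2 measured 10.18, 10.09 and 9.98 in control and 11.57, 11.37 and 11.17 in Crx-/- glands by day, but 10.04, 10.03 and 9.66 and 9.54, 9.63 and 9.58 at night. Without control replicate 3 it was higher by 1.29 by day and lower by 0.45 at night (adjusted p = 0.0152). Cpz was likewise higher by 1.53 by day and lower by 0.62 at night (adjusted p = 0.0412). Alpk2 and Mfsd4b2 were at background on all 6 night arrays, so their interaction reflects a day difference with no measurable night level.

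**Figure D5:**
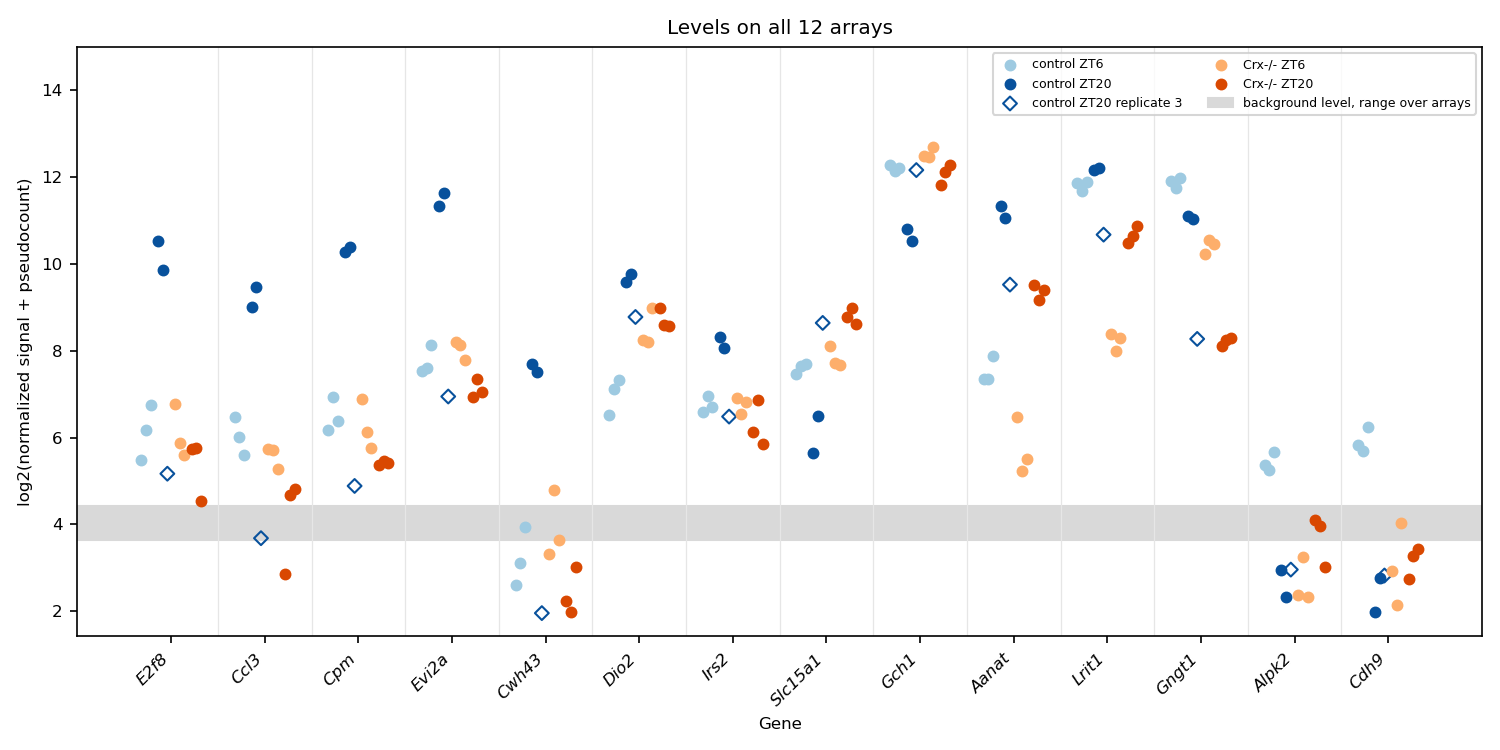
Log2 signal on all 12 arrays of genes whose genotype difference was compared between ZT6 and ZT20. E2f8, Ccl3, Cpm, Evi2a and Cwh43 were high on control ZT20 replicates 1 and 2 alone, while Aanat was lower in Crx-/- glands at both times.

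The authors' deposited tables of genes that differed between Crx-/- and control glands pooled both times of day and were made from these same arrays, so they are not independent. Of 524 genes of the authors' deposited table of increased genes that could be matched, 80 were higher at night with 12 arrays and 439 without control replicate 3, with 0 and 1 lower. Of 374 matched genes of the authors' deposited table of decreased genes, 40 were lower with 12 arrays and 343 without the array, with 0 and 1 higher.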

How the data were processed

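Signals of 12 arrays (3 per genotype and time) were used as deposited: the authors' values are intensities on a linear scale made with GCOS, per the submitters' processing notes, with no further normalization between arrays given in the sources used here. From these, 45037 of 45101 probe sets were kept (64 control features left out), quantile normalized, and converted to log2(signal + 3.4), 3.4 being the 10th percentile of all signals, so fold changes of dim genes are understated. Background on each array was the highest of 27 Bacillus control probe sets. Of the probe sets, 34945 carry a single gene symbol, 932 several and 9160 none. A gene is its brightest single-symbol probe set (18193 genes), and 34741 probe sets matched RefSeq (GRCm38.p6) by Entrez identifier. limma 3.58.1 (R 4.3.3) was fitted to 4 group means with a trended prior variance, all 12 arrays and then without control ZT20 replicate 3. p-values were adjusted by Benjamini-Hochberg over all probe sets. The authors' deposited gene lists give log2 fold changes over both times of day together; their genes were used only to count shared calls.

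In each fit the text names, for either direction, the 8 called genes that changed most, had no overlap between groups and had a brighter group above background, then the 5 largest interactions, and called members of the gene lists. The members and lists were chosen with earlier results of these data known. The fit was tested on simulated data. Scaling, filter, pseudocount, array weights, a replicate block, the night arrays alone and each array left out were tried as alternatives. The number of arrays limits the precision. Of 18 pairs of arrays with the same replicate number, 1 had deviations from the group means that correlated above 0.1 (range -0.136 to 0.107). Whether equal replicate numbers mark a shared batch was not tested.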

Additional observations from a re-analysis of the deposited data

Results flagged for a closer look

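The genotype difference at ZT20 differed from that at ZT6 in 13 genes named among the largest of these differences, by the genotype by time interaction (limma, adjusted p under 0.05, without control ZT20 replicate 3). Gene list members with such a difference are given in the report. The value given is the night difference minus the day difference on the log2 scale. In 5 of them the signal was high on control ZT20 replicates 1 and 2 and near or below the day level elsewhere: Cwh43 had -5.88, E2f8 -4.80, Ccl3 -4.68, Cpm -4.67 and Evi2a -4.66. The night decrease of Cwh43 is a bound, so the size of its value depends on the background level. In Rprm (-2.94), Cpz (-2.14) and Sphk2 (-1.74) Crx-/- glands were higher by day, and the night difference was smaller or opposite. In Alpk2 (3.82), Mfsd4b2 (3.76), Cdh9 (3.67) and 2310026I22Rik (2.84) a decrease by day had no night counterpart to measure, since both groups were at background at ZT20. Npy6r (3.14) was at background on all control night arrays and above it on 1 Crx-/- night array. The first 5 differences rest on the 2 control night arrays, and none of them passed when the array labelled control ZT20 replicate 3 was kept, whereas Rprm, Cpz, Sphk2, Alpk2 and Mfsd4b2 passed with all 12 arrays.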

How the results depend on the processing

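The count of genes called at ZT20 with 12 arrays moved most: leaving out 1 array gave 0 to 5004, with 0 for 7 of the arrays (limma; 3057 to 4666 genes then had an unadjusted p under 0.05). The same sets gave 0 to 185 list members and 0 to 446 interaction calls. It was 0 with a replicate block (4927 unadjusted), 0 with the 6 ZT20 arrays alone (3503), 0 for signals as deposited (3154) and 0 after trimmed mean scaling (4821), against 1271 after a filter on dim probe sets and 4703 with array weights, which gave control ZT20 replicate 3 a weight of 0.224. List members called were 0 under the first 4 of these, 52 with the filter and 185 with weights. Interaction calls were 1 with the block, 0 as deposited (786 unadjusted), 9 with a pseudocount of 16 and 241 with weights. Without control ZT20 replicate 3 the count at ZT20 was 4319 to 5564 under the alternatives that keep the other arrays, 4126 with the 5 ZT20 arrays alone and 2603 to 4678 when 1 more night array was left out, the lowest without control ZT20 replicate 1. Interaction calls were then 285 with a replicate block, 30 as deposited, and 95 to 421 with 1 more night array left out (95 without control ZT20 replicate 1, 157 without replicate 2). Leaving out control ZT20 replicate 1 or 2 as well left a single control array in the group, assumed to vary like the others. Deviations from group means correlated at 0.070, 0.076 and 0.107 between same-numbered control and Crx-/- ZT20 arrays. Over all 18 same-numbered pairs the range was -0.136 to 0.107. Whether equal replicate numbers mark a shared batch was not tested, so no reading is given of calls lost under the block.

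Scaling moved the median of all genes by up to 0.45 (as deposited, without the array) and 0.15 (trimmed mean). The share of calls that were higher was 54.2% in the fit without the array, 88.2% as deposited and 64.4% after trimmed mean scaling. Directions that turned without that array were 2310026I22Rik (-0.0759, without Crx-/- ZT20 replicate 2), Ddc (-0.1145, trimmed mean), Npy6r (-0.0536, block; -0.0977, without Crx-/- ZT20 replicate 3), Per1 (0.0405) and Sphk2 (0.0043), both as deposited. With 12 arrays Igfbp2 ran from -0.1243 (without control ZT20 replicate 1) to 0.7187 (without replicate 3). The cause was not tested. Over 127 named genes without the array, 1386 of the alternative values kept direction and side of the threshold, 103 lost the call, 8 gained it and 6 turned. With 12 arrays 1843 kept both, 341 lost the call, 207 gained it and 1 turned. Kept values include those of genes that stayed uncalled, as many of these genes were with 12 arrays, so they do not measure how stable the calls are.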

Other observations

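Several probe sets read 9010 of the 18193 genes, and the directions of their called probe sets were compared. These probe sets share the same RNA and arrays, and only called ones were counted, so agreement is no separate support. With 12 arrays, 61 genes had at least 2 probe sets called at ZT20, and in 1 of them the probe sets went opposite ways. Without control ZT20 replicate 3, 1629 genes had at least 2 called, and in 98 of them the probe sets went opposite ways. A gene's value in the report is that of its brightest probe set.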
